A study of Mus musculus with 6 samples.

Results

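Principal cells line the connecting tubule and collecting duct of the kidney, and 10 genes that mark them were followed in whole kidney of B6 and BALBc mice. They are the water channels Aqp2, Aqp3 and Aqp4, the epithelial sodium channel (ENaC) subunits Scnn1a, Scnn1b and Scnn1g, the hormone receptors Avpr2 and Nr3c2, the enzyme Hsd11b2 and the pump subunit Fxyd4. They were taken by gene symbol from the tables of all 6 libraries, and the 10 symbols gave 10 of 23282 rows. The series measured kidney RNA of 3 C57BL/6 mice, here B6, and 3 BALB/c mice, here BALBc, both inbred laboratory strains. It was deposited in connection with strain differences of kidney innate lymphoid cells. The sources used here give no age, sex or treatment for either strain, and no allele or agent beyond the strain. Total RNA was extracted with Trizol and read from the poly(A) end with a Lexogen QuantSeq kit, so that each transcript gives reads from its 3′ end alone.

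In a principal cell, vasopressin binds the receptor encoded by Avpr2 on the blood side and raises cyclic AMP, and protein kinase A then drives vesicles carrying aquaporin-2 into the membrane facing the urine. Water enters through aquaporin-2 and leaves through aquaporin-3 and aquaporin-4 in the basolateral membrane. Sodium enters through ENaC, which is built of α, β and γ subunits, and is pumped out by the sodium-potassium ATPase. Aldosterone acts on the same cells through the mineralocorticoid receptor, encoded by Nr3c2, and 11β-hydroxysteroid dehydrogenase type 2, encoded by Hsd11b2, keeps glucocorticoids from occupying that receptor.

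The libraries held between 8310798 and 10416332 reads. Values are CPM, reads scaled by a factor for each library, so that library totals are close but not equal. A fold compares BALBc with B6 as a difference of log2(CPM + 1), and for genes at a low level the added 1 makes it smaller than the true ratio. B6 replicate 2 stood above the other libraries in summed genes of the medulla, the inner kidney. Its 9 inner medulla markers summed to 634 CPM, against 410 and 262 CPM in B6 replicates 1 and 3 and 373, 317 and 432 CPM in the BALBc libraries. Its 11 tonicity response genes, which cells of the salty medulla use to cope with high osmolality, summed to 1427 CPM against 859 to 1043 CPM elsewhere. Of the 18 principal cell transcription factors whose mean reached 1 CPM, 12 were highest in this library, as were 7 of 10 such sodium-potassium pump and FXYD genes. B6 replicate 3 lay at the other end. Of the 8 inner medulla markers whose mean reached 1 CPM, 6 were lowest in B6 replicate 3 and 5 highest in B6 replicate 2. Results for the principal cell genes are given with and without B6 replicate 2, and for some of them also without B6 replicate 3. The 11 proximal tubule markers summed to between 16875 and 19422 CPM. The 10 principal cell genes together came to 593, 895 and 459 CPM in B6 and 599, 544 and 646 CPM in BALBc. Sums over different genes do not give shares of cells.

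None of the 10 genes passed the test for a strain difference, at a limma adjusted p under 0.05. All 10 were high enough to be tested, and across the kidney 9.09% of 13317 genes were called, 555 higher and 656 lower in BALBc. Of the 10, 3 had an unadjusted limma p under 0.05, a share near the 21.3% of all genes tested (2839), and limma-voom on read numbers recovered from the values also called 0. Values of the strains did not overlap for 3 of the 10, Fxyd4 higher in BALBc and Aqp3 and Scnn1b lower, against 25.4% of all genes tested. Folds were above 0 for 3 genes and below 0 for 7, with a median of -0.21 on the log2 scale against 0.00 over all genes tested. The median absolute log2 fold was 0.27 for the 10 genes and 0.22 over all genes. In whole kidney a lower value from fewer principal cells cannot be told apart from less RNA per cell.

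**Figure D1:**
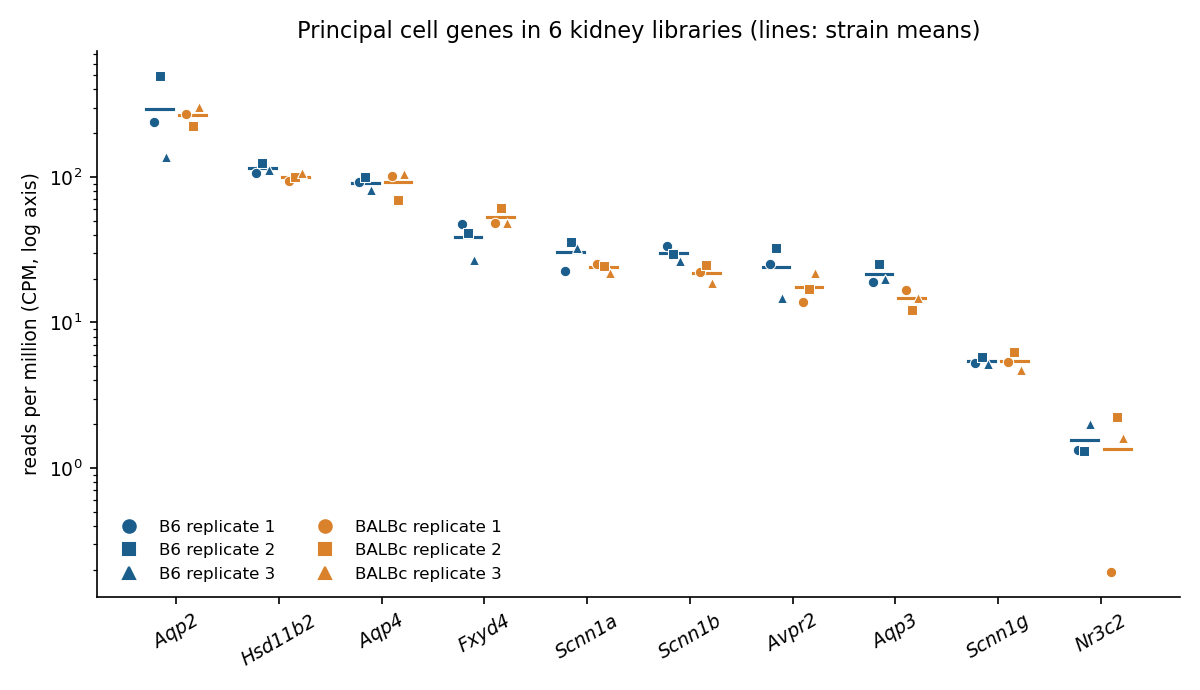
CPM (log axis) of the 10 principal cell genes in each of the 6 kidney libraries, blue for B6 and orange for BALBc, with marker shapes for replicates and lines for strain means. Aqp2 spreads from 138.2 to 497.7 CPM among B6 libraries and from 225.8 to 302 CPM among BALBc libraries, while Nr3c2 has a single low point, BALBc replicate 1.

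The genes covered a wide range of levels, with Aqp2 at the top and Nr3c2 at the bottom in all 6 libraries. With 3′ end reads each transcript counts once, so levels were compared between genes without dividing by length. Aqp2 was the highest, and its lowest library, at 138.2 CPM, exceeded the highest Hsd11b2 library at 125.5 CPM. Hsd11b2 and Aqp4 overlapped each other, and both stood above Fxyd4, whose highest library reached 61.5 CPM against a lowest Aqp4 value of 69.8 CPM. Fxyd4, Scnn1a, Scnn1b, Avpr2 and Aqp3 followed, and each overlapped its neighbour in this order. Scnn1g came next, at 4.71 to 6.25 CPM, below every library of Aqp3. Nr3c2 lay lower still, at no more than 2.24 CPM.

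Aqp2, the water channel that vasopressin moves to the urinary membrane, lies on chromosome 15 (chr15:99579055-99584547, plus strand, GRCm38). It stood at 239.7, 497.7 and 138.2 CPM in the B6 libraries and at 270.5, 225.8 and 302 CPM in the BALBc libraries. B6 held both the highest and the lowest library, 3.6-fold apart, while the BALBc libraries lay within 1.34-fold. The means were 292 ± 185 CPM in B6 and 266 ± 38.3 CPM in BALBc (SD, n = 3 each). The log2 fold was 0.05 ± 0.25 (SE; 95% confidence interval -0.46 to 0.57; limma adjusted p = 0.940), and the strain ranges overlapped. The SE is limma's, drawn toward genes of similar level by a prior of 18.4 degrees of freedom against 4 from the libraries. It is smaller than the Aqp2 libraries alone would give. B6 replicates 2 and 3 deviated by 0.964 and -0.877 log2 units from their strain mean. Without B6 replicate 2 the log2 fold was 0.54 (limma adjusted p = 0.0223, under a prior of the same kind), higher in BALBc and past the threshold. Without B6 replicate 3 it was -0.39 (limma adjusted p = 0.254), so that the direction turned on which B6 library was left out.

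Markers of the inner medulla moved with Aqp2 from library to library. B6 replicate 2 was the highest and B6 replicate 3 the lowest in Aqp2, in the summed inner medulla markers and in the summed tonicity response genes. Aqp2 relative to the inner medulla sum was 0.585, 0.785 and 0.528 in B6 and 0.726, 0.713 and 0.699 in BALBc. Urothelium markers, from the lining of the renal pelvis that can be cut away with the medulla, summed to 51.7, 55.9 and 14.6 CPM in B6 and 21.8, 27.7 and 42.6 CPM in BALBc, again lowest in B6 replicate 3. Of the inner medulla markers, Has2 had 0 reads in all 6 libraries. The part of these genes in the Aqp2 values was not tested.

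**Figure D2:**
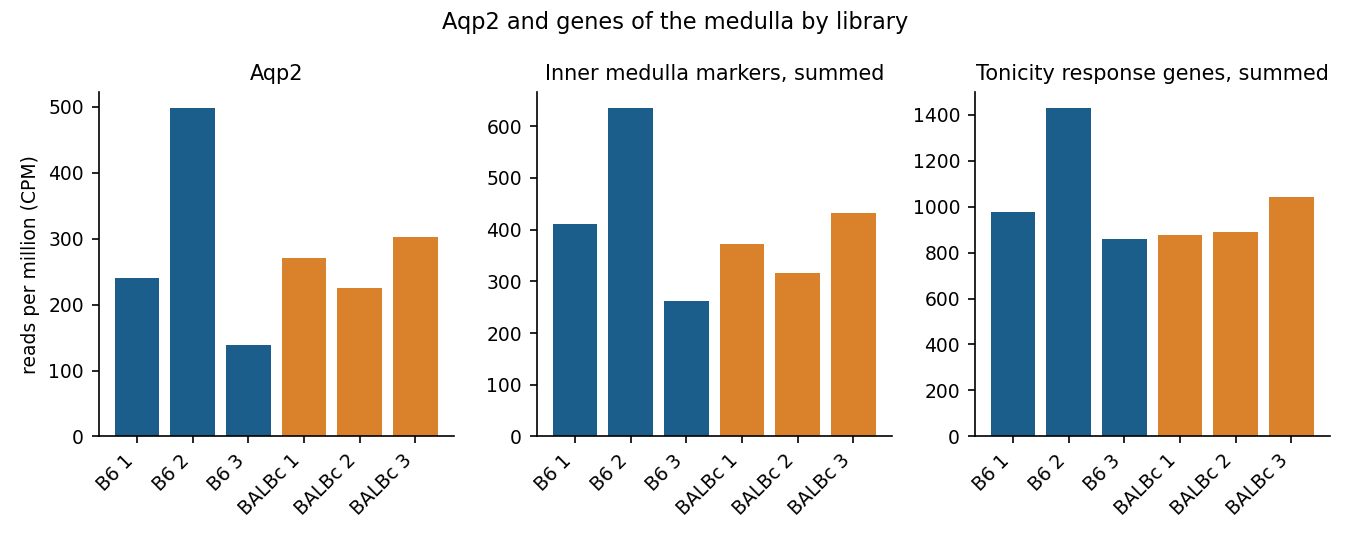
CPM in each library for Aqp2 (left), the sum of 9 inner medulla markers (middle) and the sum of 11 tonicity response genes (right), B6 in blue and BALBc in orange. B6 replicate 2 is the tallest bar in all 3 panels (497.7, 634 and 1427 CPM) and B6 replicate 3 the shortest.

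The bases just before the start of Aqp2 and of 3 other members that the comparison turns on, Aqp3, Scnn1b and Scnn1g, are shown as the reference sequence upstream of genes whose values did (Aqp3, Scnn1b) and did not (Aqp2, Scnn1g) separate the strains. They are RefSeq promoter entries on GRCm38.p6, read in the direction of the gene, at chr15:99578806-99579054 for Aqp2, chr4:41098184-41098433 (minus strand) for Aqp3, chr7:121864788-121865037 for Scnn1b and chr7:121734229-121734478 for Scnn1g. Capitals mark matches to the letters TGACG, the half-site of the cyclic AMP response element, TTATC, the core of a GATA factor site, and TATAAA, the TATA box, searched on both strands.
Aqp2: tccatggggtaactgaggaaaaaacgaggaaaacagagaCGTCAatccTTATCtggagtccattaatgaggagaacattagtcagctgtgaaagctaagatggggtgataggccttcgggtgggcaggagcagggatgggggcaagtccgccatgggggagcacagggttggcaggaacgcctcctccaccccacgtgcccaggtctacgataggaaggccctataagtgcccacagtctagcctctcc
Aqp3: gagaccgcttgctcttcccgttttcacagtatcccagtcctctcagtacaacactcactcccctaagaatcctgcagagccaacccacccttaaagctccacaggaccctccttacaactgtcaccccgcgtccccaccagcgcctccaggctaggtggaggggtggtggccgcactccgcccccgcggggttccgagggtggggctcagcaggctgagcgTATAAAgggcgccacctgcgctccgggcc
Scnn1b: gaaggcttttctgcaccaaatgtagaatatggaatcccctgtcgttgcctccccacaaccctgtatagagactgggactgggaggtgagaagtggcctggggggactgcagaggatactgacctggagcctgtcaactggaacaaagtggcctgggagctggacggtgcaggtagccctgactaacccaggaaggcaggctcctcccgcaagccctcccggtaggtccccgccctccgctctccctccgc
Scnn1g: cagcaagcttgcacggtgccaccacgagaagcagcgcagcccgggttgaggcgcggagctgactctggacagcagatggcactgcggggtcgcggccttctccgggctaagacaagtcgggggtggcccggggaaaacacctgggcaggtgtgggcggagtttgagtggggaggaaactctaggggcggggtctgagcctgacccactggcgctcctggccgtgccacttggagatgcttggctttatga

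The Aqp2 window held TGACG on the minus strand 211 bases before the RefSeq start, chr15 position 99579056, and TTATC on the plus strand 202 bases before it. The Aqp3 window held TATAAA 29 bases before the start. The windows of Scnn1b and Scnn1g held none of these letters. Of the 32851 windows of this length in the table, 17.8% held TGACG, 22.6% TTATC and 12.4% TATAAA, so such matches are common and describe the letters alone. RefSeq entries were found for 7 of the 10 genes, and those of Nr3c2, Fxyd4 and Avpr2 are not printed because they run into annotated exons.

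Aqp3 and Aqp4, the basolateral exits for water, did not follow each other between strains. Aqp3 (chr4:41092722-41098183, minus strand) measured 18.9, 25.4 and 19.9 CPM in B6 and 16.8, 12.3 and 14.7 CPM in BALBc. Every BALBc library lay below every B6 library. The log2 fold was -0.52 ± 0.21 (SE; 95% confidence interval -0.95 to -0.09), yet it missed the threshold (limma adjusted p = 0.131). Without B6 replicate 2, in which Aqp3 was also highest, the log2 fold was -0.40 (limma adjusted p = 0.372). Aqp4, on chromosome 18, which in mice is also made by proximal tubule cells, measured 93, 101 and 80.7 CPM in B6 and 102, 69.8 and 105.4 CPM in BALBc. These ranges overlapped fully, and its log2 fold was 0.00 ± 0.14 (SE; 95% confidence interval -0.29 to 0.28; limma adjusted p = 0.993), or 0.07 without B6 replicate 2 (limma adjusted p = 0.868). The ratio of Aqp3 to Aqp4 within a library, which no scaling between libraries can move, was 0.204, 0.252 and 0.246 in B6 and 0.165, 0.176 and 0.140 in BALBc. The ratios of the strains did not overlap, and this ratio was chosen after the values were seen and has no test.

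Of the 3 ENaC subunits, Scnn1b was lower in every BALBc library than in every B6 library, and Scnn1a and Scnn1g overlapped. Scnn1a encodes the α subunit, needed for the channel to reach the membrane, and lies at chr6:125320659-125344943. It measured 22.5, 35.8 and 32.7 CPM in B6 and 25.3, 24.4 and 21.9 CPM in BALBc, with B6 replicate 1 inside the BALBc range (log2 fold -0.31 ± 0.18, SE; limma adjusted p = 0.360). Without B6 replicate 2 its log2 fold was -0.18 (limma adjusted p = 0.696), and without B6 replicate 1 it was -0.50 (limma adjusted p = 0.132).

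Scnn1b, the β subunit (chr7:121865038-121918514), measured 33.3, 29.6 and 26.5 CPM in B6 and 22.2, 24.8 and 18.7 CPM in BALBc. Its log2 fold was -0.43 ± 0.18 (SE; 95% confidence interval -0.80 to -0.07; limma adjusted p = 0.144), so the separation did not pass the test. It was the same without B6 replicate 2, at -0.43 (limma adjusted p = 0.223). Scnn1g, the γ subunit (chr7:121734479-121768475), lies 96.6 kb before Scnn1b on the same strand. It measured 5.29, 5.75 and 5.16 CPM in B6 and 5.32, 6.25 and 4.71 CPM in BALBc, from 46 to 57 reads a library. The log2 fold of Scnn1g was 0.00 ± 0.29 (SE; 95% confidence interval -0.61 to 0.61; limma adjusted p = 0.999), an interval wide enough to hold the value of Scnn1b. Without B6 replicate 2 it was 0.04 (limma adjusted p = 0.974).

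Within a library, Scnn1b stood 6.31, 5.16 and 5.13 times above Scnn1g in B6 and 4.16, 3.96 and 3.98 times in BALBc. The lowest B6 ratio exceeded the highest BALBc ratio. The other ratios among the subunits overlapped between strains, Scnn1b to Scnn1a at 0.808 to 1.48 in B6 and 0.854 to 1.01 in BALBc, and Scnn1a to Scnn1g at 4.25 to 6.35 and 3.91 to 4.74. B6 replicate 1 was the odd library in both, with the lowest Scnn1a and the highest Scnn1b of its strain. Summed, the subunits came to 65.5 ± 5.14 CPM in B6 and 51.2 ± 5.2 CPM in BALBc (SD, n = 3 each), with 61.1 CPM the lowest B6 sum and 55.4 CPM the highest BALBc sum. These ratios and the sum were computed after the values were seen and carry no test.

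**Figure D3:**
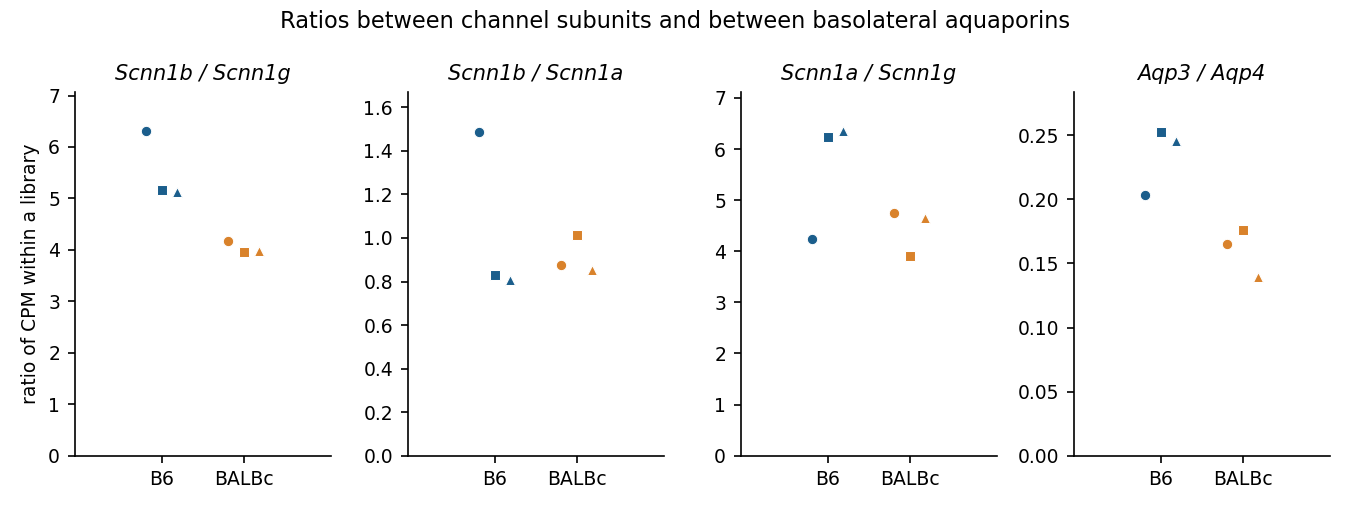
Ratios of CPM within a library for the 3 pairs of ENaC subunits and for Aqp3 over Aqp4, B6 in blue and BALBc in orange; circles, squares and triangles are replicates 1, 2 and 3, and each axis starts at 0. The strains are apart for Scnn1b over Scnn1g (5.13 to 6.31 against 3.96 to 4.16) and for Aqp3 over Aqp4, and overlap in the other panels.

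Avpr2, the vasopressin receptor of these cells, lies on the X chromosome (chrX:73892102-73895502, plus strand). It measured 25.3, 32.6 and 14.8 CPM in B6 and 13.8, 17.1 and 21.7 CPM in BALBc. B6 replicate 3 fell among the BALBc libraries, and the log2 fold was -0.40 ± 0.24 (SE; 95% confidence interval -0.89 to 0.10; limma adjusted p = 0.365). Without B6 replicate 2 it was -0.16 (limma adjusted p = 0.804), without B6 replicate 3 -0.70 (limma adjusted p = 0.0629) and without BALBc replicate 1 -0.25 (limma adjusted p = 0.689). Exons of Avpr2 share 2347 bases with exons of Arhgap4 on the other strand, none of them in the last 300 bases of Avpr2. Arhgap4 measured 18.5, 24.5 and 11.2 CPM in B6 and 13.3, 16.6 and 16.4 CPM in BALBc, and within B6 it was highest in replicate 2 and lowest in replicate 3, as Avpr2 was. The use of strand in counting is not given in the sources used here, so reads in the shared bases cannot be told apart.

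Nr3c2, the mineralocorticoid receptor (chr8:76899442-77245012), was the gene with the fewest reads. It had 12, 13 and 18 reads in B6 and 2, 19 and 16 reads in BALBc, or 1.32, 1.31 and 2.02 CPM against 0.193, 2.24 and 1.6 CPM. The exact Poisson 95% interval of the 2 reads in BALBc replicate 1 runs from 0.242 to 7.22 reads and covers counting error only. That library was the deepest of the 6, with 10416332 reads. The log2 fold was -0.23 ± 0.43 (SE; 95% confidence interval -1.11 to 0.66; limma adjusted p = 0.825), and it was -0.29 (limma adjusted p = 0.813) without B6 replicate 2 and 0.20 (limma adjusted p = 0.873) without BALBc replicate 1. Fitted to the recovered reads with limma-voom it was -0.77 (limma adjusted p = 0.677), so its size depends on how low values are treated. At this standard error a difference below 2.55-fold in CPM + 1 would not have been called for this receptor. At so low a level the fold needed in CPM itself is larger.

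Hsd11b2, which shields the mineralocorticoid receptor from glucocorticoids, had the smallest standard error of the 10 genes. It lies at chr8:105518755-105523988 and measured 106, 126 and 112 CPM in B6 and 94.1, 99.6 and 107 CPM in BALBc. The ranges overlapped only between 106 and 107 CPM, with a log2 fold of -0.19 ± 0.11 (SE; 95% confidence interval -0.42 to 0.04; limma adjusted p = 0.341), and of -0.12 without B6 replicate 2 (limma adjusted p = 0.619). Fxyd4, also called CHIF, a small protein that tunes the sodium-potassium pump in the collecting duct, was the gene nearest to the threshold. It lies at chr6:117933559-117937692 on the minus strand and measured 47.8, 41.1 and 26.7 CPM in B6 and 48.6, 61.5 and 48.4 CPM in BALBc. The lowest BALBc library exceeded the highest B6 library by under 1 CPM. The log2 fold was 0.48 ± 0.18 (SE; 95% confidence interval 0.11 to 0.84; limma adjusted p = 0.0997), and 0.54 without B6 replicate 2 (limma adjusted p = 0.0799). Without B6 replicate 3, the lowest library, it was 0.24 (limma adjusted p = 0.441).

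Standard errors here are limma's, drawn toward those of genes at a similar level. For Aqp2 this made the standard error smaller than its libraries alone would give, and for Scnn1g larger. How large a measured fold had to be for a call follows from each gene's standard error. As a fold of CPM + 1, it was 1.27-fold for Hsd11b2 and 1.36-fold for Aqp4. It was between 1.47-fold and 1.57-fold for Fxyd4, Scnn1b, Scnn1a and Aqp3. For the others it was 1.69-fold for Avpr2, 1.72-fold for Aqp2, 1.91-fold for Scnn1g and 2.55-fold for Nr3c2. In CPM itself the folds needed are larger, most of all for Nr3c2 and Scnn1g. A true change of such a size could still have been missed. The last 300 bases of the 10 transcripts shared no 50-base word with another gene. Both strains were processed against mm10, the C57BL/6 reference, and a loss of BALBc reads through sequence differences was not tested.

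**Figure D4:**
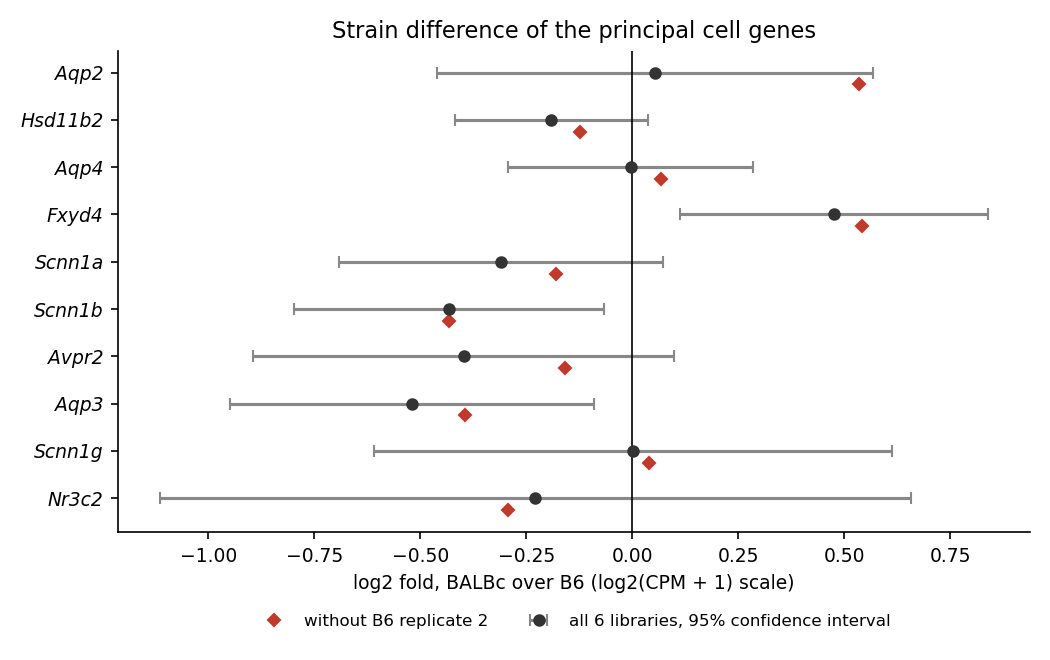
Log2 folds, BALBc over B6, of the 10 principal cell genes: black points with 95% confidence intervals use all 6 libraries, and red diamonds leave out B6 replicate 2. The intervals of Fxyd4, Scnn1b and Aqp3 do not reach 0, though none passed after adjustment, and Aqp2 shifts from 0.05 to 0.54 without that library.

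The 10 genes did not move together as a block across libraries. After strain means were removed, 27 of 45 pairs of genes had a Pearson r above 0 over the 6 libraries, with a median of 0.13. The highest values were 0.86 for Aqp2 with Avpr2 and 0.82 for Scnn1b with Fxyd4, and the lowest was -0.70 for Aqp3 with Nr3c2. In B6 replicate 2, 8 of the 10 genes stood above their strain mean, and in B6 replicate 3 only 2 did. The genes whose deviations most resembled the mean deviation of the 10 were Prkx, Svil, Pacsin2, Mcm3ap and Pck2, with r from 0.995 to 0.9996 among 8707 genes whose mean reached 10 CPM. These r values describe 6 points that share a library and its scaling, and the top of so many genes is high by selection. Within BALBc, Nr3c2, the gene with the fewest reads, also weighed heavily in the mean deviation. Its deviations in replicates 1, 2 and 3 were -0.855, 0.586 and 0.270, where the mean deviations were -0.0865, 0.0357 and 0.0508.

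The machinery through which vasopressin acts on aquaporin-2 held several called genes. Of 33 genes on this list 32 were tested, and 2 were higher and 3 lower in BALBc, with a median log2 fold of -0.07. Over all genes tested, 9.09% were called. The type II regulatory subunits of protein kinase A changed in opposite directions. Prkar1a, a type I subunit named after its value was seen, measured 249.7 CPM in B6 and 228.9 CPM in BALBc. It was not called (log2 fold -0.13, limma adjusted p = 0.479). Prkar2a, the RIIα subunit, fell from 48.2 ± 5.18 CPM in B6 to 22.6 ± 1.70 CPM in BALBc (log2 fold -1.06 ± 0.16, SE; limma adjusted p = 5.48e-05). Prkar2b, the RIIβ subunit, rose from 5.05 ± 1.01 CPM to 14.9 ± 3.25 CPM (log2 fold 1.39 ± 0.27, SE; limma adjusted p = 0.00117). Snap23, a SNARE protein of vesicle fusion, was lower in BALBc at 26.3, 31.4 and 23.7 CPM against 47, 46.6 and 54.8 CPM (log2 fold -0.85, limma adjusted p = 6.45e-04). Hspa8, a chaperone found with aquaporin-2 in endocytosis, was lower with a log2 fold of -1.50 (limma adjusted p = 1.29e-09), but 66.7% of its 3′ end words recur in pseudogenes and its value is uncertain. The fifth called gene, Ednrb, an endothelin receptor named here after its value was seen, was higher with a log2 fold of 0.77 (limma adjusted p = 0.0192). Gnas, the G protein α subunit that links the receptor to adenylyl cyclase, measured 789 CPM in B6 and 745 CPM in BALBc and was not called, and Adcy6, a cyclase of this pathway, showed -0.49 (log2 fold; limma adjusted p = 0.0565); both are named after their values were seen.

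Of the genes of aldosterone signalling and ENaC control, 2 were called. All 29 were tested, and 2 were higher and 0 lower in BALBc, against calls for 9.09% of all genes tested. The median log2 fold was -0.14, and 8 genes had an unadjusted limma p under 0.05 against 21.3% of all genes tested. Oxsr1, a kinase that WNK kinases switch on, measured 11.6, 10.4 and 13.6 CPM in B6 and 19.1, 25.2 and 26.9 CPM in BALBc (log2 fold 0.94 ± 0.21, SE; limma adjusted p = 0.00481). Sgk1, the kinase that aldosterone induces to keep ENaC at the surface, showed a log2 change of -0.25 (limma adjusted p = 0.242), and Nedd4l, the ligase that removes ENaC, one of -0.03 (limma adjusted p = 0.916). Prss8, a protease that activates ENaC, stood at 208 CPM in B6 and 184 CPM in BALBc (log2 fold -0.17, limma adjusted p = 0.372). These 3 were chosen after their values were seen.

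Other genes of principal and connecting tubule cells held the most calls of the pathway lists. Of 31 genes 30 were tested, and 1 was higher and 7 lower in BALBc, against calls for 9.09% of all genes tested. The median log2 fold of the list was -0.26. Apela, a secreted ligand of the apelin receptor, fell from 1425, 1466 and 1160 CPM in B6 to 677, 635 and 559 CPM in BALBc (log2 fold -1.11 ± 0.10, SE; limma adjusted p = 3.47e-08), and its exons overlap Gm45886 on the same strand. Rhcg, an ammonia channel also made by intercalated cells, fell from 62.5 ± 5.17 to 37.1 ± 4.41 CPM (log2 fold -0.74, limma adjusted p = 8.83e-04). Slc8a1, the sodium-calcium exchanger that returns calcium to the blood, fell from 333 to 215 CPM (log2 fold -0.62, limma adjusted p = 2.57e-04), and its exons overlap genes on the other strand. Kcnj16, a potassium channel subunit, rose from 678 to 997 CPM (log2 fold 0.56, limma adjusted p = 7.80e-05). The other lower genes, named after their values were seen, were the calcium-binding Calb1 (log2 fold -0.48) and S100g (-0.43), the potassium channel Kcnj10 (-0.57), which pairs with Kcnj16, and the ammonia transporter Rhbg (-0.56).

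Among 18 tested transcription factors of the list for principal cells, 1 was lower and 0 higher in BALBc. Their median log2 fold was -0.12, and 9.09% of all genes tested were called. Hoxd8, a homeobox factor, fell from 246 ± 26.9 to 168 ± 13.1 CPM (log2 fold -0.54, limma adjusted p = 9.78e-04). Gata3, which with Gata2 is known to act on collecting duct genes, and which is named after its value was seen, measured 34.1 CPM in B6 and 22.8 CPM in BALBc and missed the threshold (log2 fold -0.58, limma adjusted p = 0.0794). Of the other pump and FXYD genes 9 of 12 were tested, with a median of -0.16. In BALBc 2 were lower, against the same 9.09%. Those were Atp1b3, a β subunit of the pump, at 103 against 76.2 CPM (log2 fold -0.43, limma adjusted p = 0.0201), and Fxyd6 at 10.3 against 4.45 CPM (log2 fold -1.10, limma adjusted p = 0.0236). Atp1b3 lost its call without B6 replicate 1 or 2 or BALBc replicate 1 or 2 (limma adjusted p from 0.0593 to 0.106), and Fxyd6 without B6 replicate 2 or 3 or BALBc replicate 1 or 2 (limma adjusted p from 0.0760 to 0.112). Fxyd2, the γ subunit of the pump in most of the nephron, measured 1783 CPM in B6 and 1580 CPM in BALBc (log2 fold -0.17, limma adjusted p = 0.253), and the log2 fold of Fxyd4 had the opposite sign; Fxyd2 is named after its value was seen.

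Of the other aquaporins 6 of 9 were tested and only Aqp6, the channel of intercalated cell vesicles, was called, against 9.09% of all genes. It measured 38.5, 47.8 and 38.3 CPM in B6 and 55.9, 61.2 and 64.7 CPM in BALBc (log2 fold 0.54 ± 0.14, SE; limma adjusted p = 0.0130), and lost its call without B6 replicate 1 or 3 or BALBc replicate 2 or 3 (limma adjusted p up to 0.0758). Aqp6 lies 16.9 kb beyond Aqp2 on chromosome 15, and the interval of the Aqp2 fold holds its value. Aqp1, the water channel of the proximal tubule and thin limb, stood at 825 and 888 CPM in B6 and BALBc and is named after its value was seen (log2 fold 0.11, limma adjusted p = 0.560).

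**Figure D5:**
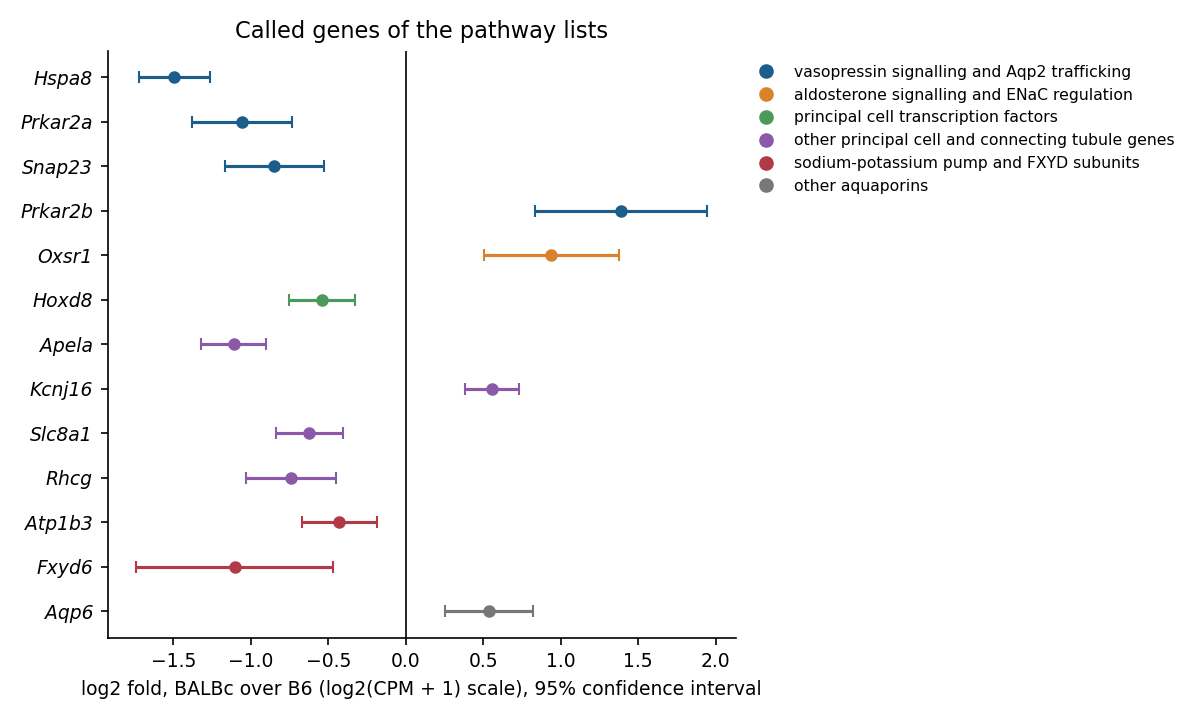
Log2 folds, BALBc over B6, with 95% confidence intervals for called genes of 6 pathway lists, coloured by list and limited to the 4 smallest p-values of a list. Prkar2b, Oxsr1, Kcnj16 and Aqp6 lie above 0 and the other 9 below, with Hspa8 at -1.50 the lowest.

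Neighbouring cell types gave the background to these values. Over the 14 lists 33 of 191 distinct genes tested were called, or 17.3%, against 9.09% of all genes tested. The lists were chosen with results of these data known. Of 18 intercalated cell markers 1 was higher (Aqp6) and 1 lower (Hepacam2, log2 fold -0.50), and their sum ran from 1522 to 1618 CPM in B6 and from 1423 to 1472 CPM in BALBc. Of 11 proximal tubule markers 1 was higher (Slc5a12, log2 fold 1.22) and 2 lower (Pck1, -0.57, and Slc22a8, -0.39). In the thick ascending limb, Cldn10 was higher (0.36) and Egf lower (-0.38), and in the distal convoluted tubule Pvalb was higher (1.27) and Slc12a3 lower (-0.53). The tonicity list had 1 lower gene, Hspa4l (-0.55), the urothelium list 1 lower, Krt15 (-1.58), the inner medulla list 1 higher, Bst1 (1.51), and the podocyte list a lower gene, Nphs1 (-2.98). Leaving out at least 1 single library ended the calls of Aqp6, Hepacam2, Slc22a8, Cldn10, Hspa4l and Krt15. Bst1 and Nphs1 share part of their 3′ end words with other genes, and exons of Egf, Bst1 and Nphs1 overlap other genes on the opposite strand. The part of these markers in the values of the principal cell genes was not tested.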

How the data were processed

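RNA of 6 kidneys, 3 per strain, was measured by 3′ end sequencing, per the labels' protocols. Bowtie2, bedtools and the build mm10 are named in the submitters' processing notes; their versions, the gene annotation and whether strand was used are not stated there or in the labels. The values the authors deposited are on a log2 scale, 1 per symbol and library. Raised from that scale and lowered by 1, they sum to between 980188 and 1043600 in a library, and 100% of the low values (20 reads or fewer) fell within 0.1 read of a multiple of one step. They are therefore log2(CPM + 1), with a scaling factor per library, and reads were recovered from the steps. With limma 3.58.1 (R 4.3.3), a linear model was fitted over all 13317 genes with a log2 value of at least 1 in at least 3 libraries, with strain as the sole term and a variance prior that follows the level. All p-values are two-sided and adjusted by the Benjamini-Hochberg method over every gene tested. The residual degrees of freedom were 4 and the prior added 18.4. The test was also run on simulated data, with the dispersion set at 0.05. It recovered 48 of 100 genes given a log2 change of 1 and 98 of 99 given a change of 2.

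The 10 genes and the 14 lists were chosen with earlier results of these data known. Genes named are the 10 members and the 5 genes most like them. Of each list every called gene is named, at most the 4 with the smallest p. Any other gene given with a fold is marked as picked with its value in view. Some genes that this rule names are counted but not reported here. The libraries are separate mice per the series' design text, and pairs of one strain differed beyond sampling noise, with a chi-square per degree of freedom of 7.93 to 17.1. Coordinates and overlaps come from GENCODE M21 on GRCm38, the assembly mm10 names, and all 10 members were placed. Copies were sought with 50-base words at steps of 5 bases over the final 300 bases of a transcript. Promoter windows of 250 bases come from RefSeq, and that of Aqp2 was shortened by 1 annotated exon base. Alternatives covered the pseudocount, the filter, the scaling, the variance prior, limma-voom, a replicate block and leaving out each library.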

Additional observations from a re-analysis of the deposited data

How the results depend on the processing

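No alternative called any of the 10 principal cell genes except leaving out B6 replicate 2, which called Aqp2, so that leaving out single libraries gave 0 to 1 genes called. With the variance prior not following the level, 493 genes in place of 1211 were called over the kidney and 15 in place of 33 on the lists. Leaving out single libraries gave 797 to 1138 genes and 21 to 37 on the lists. The lowest counts of both came without BALBc replicate 1, and 806 genes were called without B6 replicate 1; these fits have fewer samples. Strains share replicate numbers, and the deviations of same-numbered libraries had r of 0.01, -0.06 and -0.08. These values showed no shared pattern by number but cannot tell whether same-numbered mice were handled together. With a replicate block 977 genes, 31 on the lists and 0 of the 10 were called.

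Log2 folds near 0 changed sign. Leaving out single libraries gave -0.39 to 0.54 for Aqp2, -0.11 to 0.18 for Aqp4, -0.0890 to 0.0835 for Scnn1g and -0.52 to 0.20 for Nr3c2. Aqp4 was 0.0194 when scaled to total reads, 0.00771 with upper quartile scaling, 0.0305 with total reads less the 45S row and 0.00387 with limma-voom, which gave Scnn1g -0.0160. The fold of Nr3c2 also moved with the handling of low values, to -0.77 with limma-voom, -0.48 with a pseudocount of 0.25 CPM and -0.06 with 5 CPM. These scalings moved the median log2 fold of all genes to between 0.01 and 0.03. Of the 28 other genes tried, 12 kept their call under every alternative and the other 16 lost it under at least 1, Hspa4l and Hepacam2 most often. The cause was not tested. Nr3c2 and Scnn1g had the fewest reads of the 10 genes, and the Poisson interval of Nr3c2 covers counting error only.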
